A study of Mus musculus with 4 samples.

Results

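The Ovol and Zeb genes encode zinc finger transcriptional repressors that sit on opposite sides of the choice between epithelial and mesenchymal states. The 5 mouse genes Ovol1, Ovol2, Ovol3, Zeb1 and Zeb2 were taken by symbol, as every probe set annotated to exactly 1 of them. Each gene had 1 probe set, which gave 5 of 19938 genes, and 5 of the 21789 probe sets with 1 gene symbol among 35556 on the array. The arrays held RNA of terminal end buds, the club-shaped growing tips of the pubertal mammary ducts, dissected from female C57/BL6 mice. The 2 control arrays held pools of 2 mice each that carried a floxed and a wild-type Ovol2 allele, written Ovol2flox/+ in the sample labels, while the protocol text also admits Ovol2flox/+;K14-Cre animals as controls. The 2 knockout arrays (Ovol2 KO) held pools of 3 mice each of genotype Ovol2flox/-;K14-Cre, in which 1 allele is null in every cell and the floxed allele is open to Cre recombinase driven by the keratin 14 promoter. A floxed allele was thus shared by both groups. The labels give an age of 4.5 weeks and the series text 24 to 25 days. The number of mice per pool and the genotype cannot be told apart.

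Ovol proteins bind DNA through C2H2 zinc fingers and keep epithelial cells epithelial, in part by repressing Zeb1 and other genes of the epithelial-mesenchymal transition (EMT). Zeb1 and Zeb2 carry a zinc finger cluster near each end of the protein, bind E-boxes of the CACCTG type and recruit CtBP corepressors to silence epithelial genes such as Cdh1. The microRNAs of the miR-200 family repress both Zeb transcripts and are themselves repressed by Zeb proteins, which makes a mutual switch. In the mammary gland Zeb1 and Zeb2 are known mainly from the stroma and from vascular and immune cells, with little in luminal epithelium.

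The mature miR-200 sequences are shown because their seeds, bases 2 to 8 in capitals, are what pairs with the Zeb transcripts. The family falls into a pair of seed groups that differ at 1 base. The sequences are those of RefSeq for GRCm38.p6, where miR-200a, miR-200b and miR-429 lie on the minus strand of chromosome 4 (miR-200a-3p at chr4:156054911-156054932) and miR-200c and miR-141 on the minus strand of chromosome 6 (miR-200c-3p at chr6:124718324-124718346).
miR-141-3p: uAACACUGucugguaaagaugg
miR-200a-3p: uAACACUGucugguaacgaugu
miR-200b-3p: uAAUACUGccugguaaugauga
miR-200c-3p: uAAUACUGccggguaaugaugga
miR-429-3p: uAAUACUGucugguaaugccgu

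Short promoter windows of epithelial genes described as Zeb targets are shown next, because they carry the letters that Zeb proteins read. The Zeb box was searched as CACCTG or its reverse complement CAGGTG, which covers both strands, in the RefSeq promoter windows of 300 bases (250 before the start site to 50 after, GRCm38.p6). The 9 lines give, for each gene with such a window, the match nearest the start site whose flanks lie wholly before at least 1 annotated start site of the gene, in the direction of the gene, with the box in capitals. For Crb3, whose window is given for more than 1 start site, the printed box lies 37 bases before one of them and its flanks reach past another.
Ap1m2, chr9:21312339-21312364, minus strand: aagacgcgctCACCTGgcggctcacc
Cldn7, chr11:69965354-69965379, plus strand: acttccggttCAGGTGagtgtccctt
Crb3, chr17:57062184-57062209, plus strand: cagccaggctCAGGTGcacaagccgg
Epcam, chr17:87635950-87635975, plus strand: ccataaaaccCAGGTGtggaggagaa
Ocln, chr13:100552551-100552576, minus strand: aggggctcggCAGGTGggtcccagcg
Patj, chr4:98395797-98395822, plus strand: gagagcggccCAGGTGaggaggcggc
Rab25, chr3:88548317-88548342, minus strand: acctgtgcccCAGGTGcccagcggag
Tjp3, chr10:81291269-81291294, minus strand: caaaccctccCACCTGcaggccggcc
Tmem30b, chr12:73546460-73546485, minus strand: ggggctggcgCACCTGcgcgggcggg

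The level of the luminal keratin gene Krt8 was used to check the tissue label. It averaged 13.59 in the controls and 13.64 in the knockouts on the log2 scale. Control means of the 18 fibroblast markers described below ran from 6.47 for Fap to 11.61 for Dcn. Of 10 measured luminal markers 1 rose and 9 did not pass, against 3.87% of all genes called higher. The risen count was 0 without the variance trend and 3 under the replicate block. That count compares the groups and does not check the tissue. Array medians lay between 252 and 272 in linear signal. Values below are log2(signal + 16) after quantile normalization, differences are knockout minus control on that scale, ± gives the SE of a difference with n = 2 arrays per group, and adjusted p is that of limma with Benjamini-Hochberg adjustment over all 21789 probe sets, with a threshold of 0.05. In pooled tissue, fewer cells of a type and less RNA per cell cannot be told apart.

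Both Zeb genes rose in the knockout, Zeb1 about 4-fold and Zeb2 about 1.6-fold, whereas no Ovol gene passed the threshold. Thus 2 of the 5 genes were called, against a background of 6.34% of all probe sets in either direction, 4.06% called higher and 2.29% called lower. The arrays of the groups did not overlap for 3 of the 5 genes (Zeb1, Zeb2 and Ovol2), against 49.9% of all probe sets, of which 20.7% had both knockout arrays above and 29.2% had both below.

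Ovol2, the targeted gene, read 8.05 and 8.31 on the control arrays and 7.85 and 7.73 on the knockout arrays (probe set 10488256). As deposited, its linear signals were 250.2 and 291 in the controls against 211 and 204 in the knockouts. Both knockout arrays lay below both controls, by a gap of 0.20 that was smaller than the 0.26 between the control arrays. The difference was -0.39 ± 0.13 (95% CI -0.68 to -0.09), a signal 1.31-fold lower, and did not pass (adjusted p = 0.127). It ranged from -0.52 without control replicate 1 to -0.26 without control replicate 2, and passed under 0 of 13 alternatives. Both knockout arrays lay below 7.97, the 40th percentile of gene means, and both controls above it. Without detection calls a signal that dim could not be told from background, so the 1.31-fold value may understate the change. Ovol2 is an epithelial gene, and the position of its probes relative to the floxed exons was not analysed here. The size thus does not measure the deletion.

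Ovol1, the relative best known from epidermal and hair differentiation, read 8.66 and 8.62 in the controls against 8.84 and 8.52 in the knockouts (probe set 10465106). The knockout arrays lay on either side of both controls. Its difference was 0.04 ± 0.12 (95% CI -0.23 to 0.31, adjusted p = 0.891), and the interval leaves room for neither a 1.5-fold rise nor a 1.5-fold fall. The sign turned without knockout replicate 1, at -0.12.

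Ovol3, the least studied of the family, read 8.58 and 8.29 in the controls against 8.14 and 8.45 in the knockouts (probe set 10561861). The groups overlapped. Its difference was -0.14 ± 0.14 (95% CI -0.46 to 0.18, adjusted p = 0.653), and the sign turned without control replicate 1 (0.0039) and without knockout replicate 1 (0.018). No rise of Ovol1 or Ovol3 past the threshold thus accompanied the lower Ovol2 signal.

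**Figure D1:**
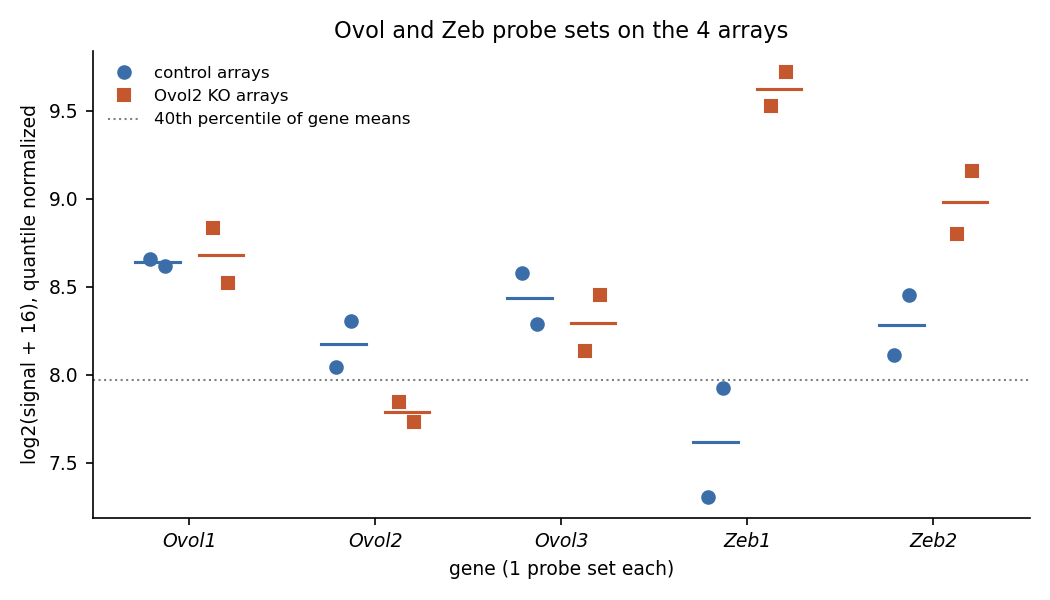
Quantile-normalized log2(signal + 16) of the 5 genes, 1 probe set each, on the 2 control arrays (circles) and the 2 Ovol2 KO arrays (squares), with bars at the group means and a dotted line at 7.97, the 40th percentile of gene means. The Zeb1 knockout arrays sit at 9.53 and 9.72, above both controls at 7.31 and 7.92, and the Ovol2 knockout arrays lie below both controls.

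Zeb1, the EMT repressor, read 7.31 and 7.92 in the controls against 9.53 and 9.72 in the knockouts (probe set 10453678), which in deposited linear signal was 149 and 217 against 754 and 817. All 4 pairs of a knockout with a control array differed in the same direction, by 1.61 to 2.42, and the gap between the groups was 1.61 against a spread of 0.62 between controls and 0.19 between knockouts. The difference of 2.01 ± 0.18 (95% CI 1.62 to 2.40, adjusted p = 0.000286) was the sixth highest of all 21789. Both controls lay below 7.97, the 40th percentile of gene means, and without detection calls a signal that dim could not be told from background, so the 4.03-fold value may understate the change. Leaving out 1 array at a time gave 1.70 to 2.32. The call was lost in a fit without the variance trend (adjusted p = 0.0685), in which 26 probe sets passed in all.

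Zeb2, the paralog of Zeb1, read 8.11 and 8.45 in the controls against 8.80 and 9.16 in the knockouts (probe set 10482448), or 261 and 326 against 439.9 and 554 in deposited linear signal. The knockout arrays lay above both controls by a gap of 0.35, about the size of the spread within each group (0.34 and 0.36). The difference was 0.70 ± 0.15 (95% CI 0.37 to 1.03, adjusted p = 0.0215), a 1.62-fold rise. The 95% intervals of Zeb1 and Zeb2 did not overlap, and the difference between the paralogs was not itself tested. The Zeb2 call was lost without control replicate 1 (0.53, adjusted p = 0.0789), in a fit over all probe sets of the array (adjusted p = 0.125) and without the variance trend (adjusted p = 0.16).

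Zeb2os, the RNA transcribed from the strand opposite Zeb2, has a probe set of its own and was looked up because of its position. It read 6.30 and 6.45 in the controls against 6.13 and 6.30 in the knockouts, a difference of -0.16 ± 0.15 (adjusted p = 0.612). Its signal was dim in all 4 arrays and did not follow the Zeb2 value.

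**Figure D2:**
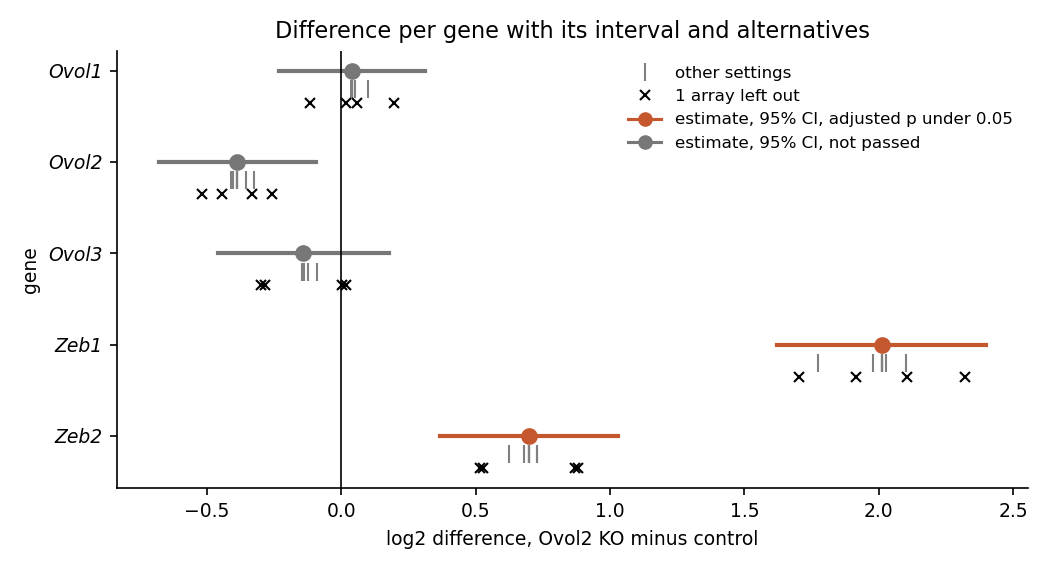
Log2 difference (Ovol2 KO minus control) of each gene with its 95% interval, coloured where the adjusted p was under 0.05, with the values under other settings (ticks) and with 1 array left out (crosses). Zeb1 stayed between 1.70 and 2.32 and Zeb2 between 0.52 and 0.88, while Ovol1 and Ovol3 had values on either side of 0.

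Most fibroblast markers, and some endothelial and pericyte markers, moved with the Zeb genes. Of 18 fibroblast markers 16 rose and 0 fell (median difference 1.11, against -0.05 over all genes, of which 6.25% were called and 3.87% were called higher), and their summed linear signal was 17008 and 17820 in the controls against 33151 and 40070.0 in the knockouts. The fibroblast count was 12 in the fit over all probe sets and 4 without the variance trend. Of 12 endothelial markers 5 rose (median 0.56), with 0 in either of those fits, 3 without control replicate 1, 9 without control replicate 2 and 10 without knockout replicate 1. Of 7 pericyte markers 2 rose (median 0.54), with 0 without the variance trend and 4 without control replicate 2 or without knockout replicate 1. The endothelial sums were 5975 and 6994 in the controls against 7978 and 9750 in the knockouts, and the pericyte sums 3544 and 4006 against 4734 and 5471. No defining marker of these lists was at 0 on any array, which without detection calls does not show that it was present. Of 9 adipocyte markers 4 rose (median 0.11), and of 6 Schwann cell markers 2 rose (median 0.17). Of 8 basal epithelial markers 4 rose and 1 fell (median 0.32). In the adipocyte list Lpl, Cd36, Fabp4 and Pparg rose. Adipoq (0.11), Lep (0.02), Cidec (-0.02), Plin4 (-0.06) and Plin1 (-0.08) did not pass. In the Schwann cell list Scn7a and Cdh19 rose, while Erbb3 (0.20), Mbp (0.14), S100b (-0.04) and Sox10 (-0.23) did not pass. In the basal list Oxtr, Myh11, Cnn1 and Acta2 rose and Trp63 fell (-0.36). Krt14 (0.43), Krt17 (0.15) and Krt5 (-0.02) did not pass. Over the alternatives 0 to 4 adipocyte, 0 to 3 Schwann cell and 0 to 6 basal markers rose, and the basal median ranged from 0.14 (knockout replicate 2 left out) to 0.56 (knockout replicate 1 left out). The part of such cells in the Zeb values was not tested.

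Zeb1 and Zeb2 took different places among the fibroblast markers. The Zeb1 difference of 2.01 was above that of all 18, although with an offset of 64 Lum (1.85) was above Zeb1 (1.77). Of the 18 markers 3 lay inside the 95% interval of Zeb1. Those 3 were the laminin gene Lama2 (1.94 ± 0.17), the lumican gene Lum (1.94 ± 0.09) and the receptor gene Pdgfra (1.62 ± 0.12). The Zeb2 difference was below that of 15 of the 18.

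Immune markers did not rise with the Zeb genes, although Zeb2 is known from macrophages and both genes from lymphocytes. Of 12 macrophage markers 0 rose and 1 fell, the lysozyme gene Lyz2 (-0.96 ± 0.23, adjusted p = 0.0359; -0.47 without knockout replicate 2; not called with a robust prior, in the fit over all probe sets or without the variance trend), and the list median was -0.02 (0.22 without knockout replicate 2). Their summed signal was 5029 and 5616 in the controls against 5593 and 4032 in the knockouts. All 9 measured lymphocyte markers had negative differences and 4 of them fell: Ms4a1 (-2.05), Cd79b (-1.91), Cd79a (-1.78) and Ccr7 (-0.84), of which the first 3 are B-cell genes. The lymphocyte sums were 2960 and 2450 against 1478 and 1417. Over all genes 3.87% were called higher and 2.38% lower.

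**Figure D3:**
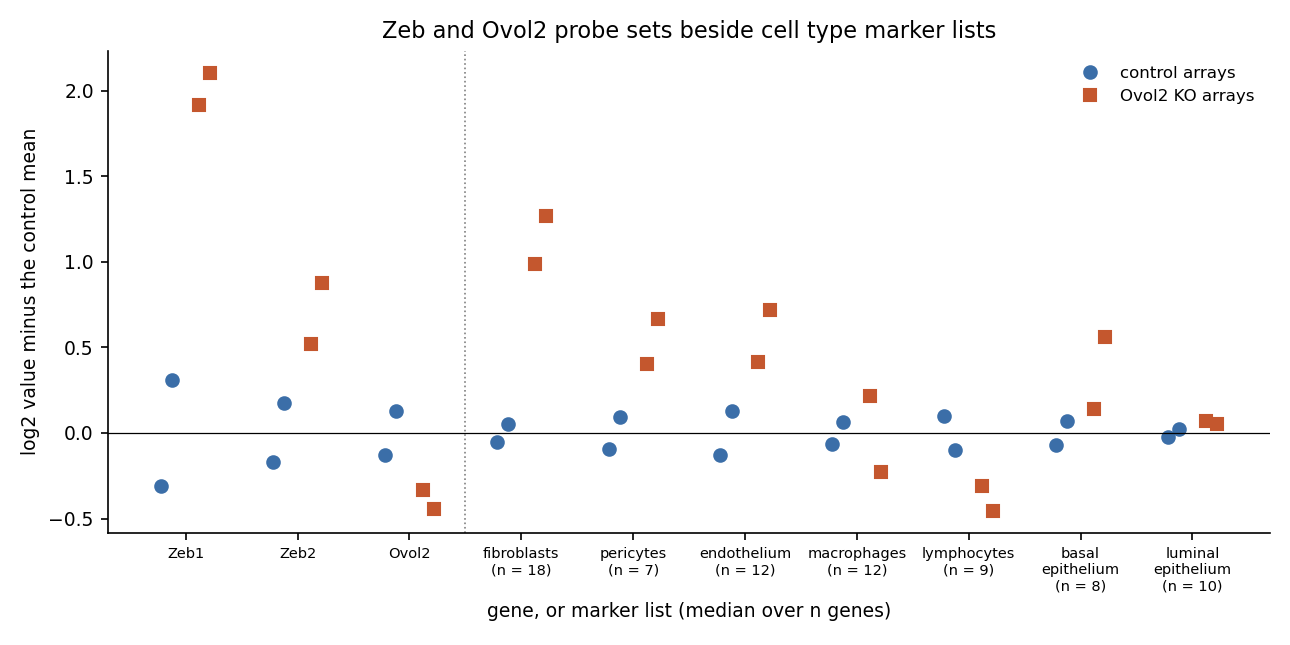
Log2 value minus the control mean on each array for Zeb1, Zeb2 and Ovol2, and the median over each cell type marker list. On the knockout arrays Zeb1 stood at 1.92 and 2.11, the fibroblast median at 0.99 and 1.27, Zeb2 at 0.52 and 0.88, and the lymphocyte median at -0.31 and -0.45.

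Probe sets with the profile most like that of each gene were found by the Euclidean distance between centred log2 values over the 4 arrays. For Zeb1 they were Lama2 (distance 0.068), Ccdc80 (0.13), Abca8a (0.28), Lum (0.36) and Nrxn3 (0.37), with differences from 1.76 to 2.25. Lama2, Lum and Ccdc80 encode extracellular matrix proteins. For Zeb2 they were the smooth muscle genes Mylk (0.042) and Myh11 (0.056), both probe sets of the hemicentin gene Hmcn1 (0.056 and 0.064) and Rgl1 (0.056), with differences from 0.70 to 0.74. For Ovol2 they were Efna2 (0.044), Cables1 (0.056), Nlgn1 (0.065), Rad54b (0.066) and Phyhip (0.071), none of which passed the threshold. With 4 arrays, a close profile is a description only.

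The count of epithelial genes described as Zeb targets past the threshold does not set them apart from all genes. Of 25 such genes, taken from general knowledge, 0 rose, 1 fell and 24 did not pass. Over all genes 3.87% were called higher and 2.38% lower. The 1 that fell was the desmosomal gene Dsp, at 11.70 and 11.80 in the controls against 11.56 and 11.47 in the knockouts (-0.23 ± 0.06, adjusted p = 0.0326), a call lost without control replicate 2 or knockout replicate 2 and with median centring of the arrays. The count that fell ranged from 0 to 5 over the alternatives, with 5 under the replicate block. Differences were small but mostly on 1 side: 21 of 25 were negative against 62.3% of all genes, and in 15 of 25 both knockout arrays lay below both controls against 29.5%, while 1 of 25 had both above against 20.1%, with a list median of -0.09 beside -0.05 for all genes.

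The E-cadherin gene Cdh1, the classical Zeb target, read 12.55 and 12.63 in the controls against 12.53 and 12.43 in the knockouts. The knockout arrays lay below both controls by a gap of 0.023, and the difference of -0.11 ± 0.05 did not pass (95% CI -0.22 to -0.01, adjusted p = 0.211), and it passed under the replicate block alone of the 13 alternatives (adjusted p = 0.0495). The claudin genes Cldn4 (-0.20 ± 0.06, adjusted p = 0.061) and Cldn7 (-0.21 ± 0.06, adjusted p = 0.0737) and the polarity gene Llgl2 (-0.27 ± 0.11, adjusted p = 0.19) had larger negative values that also missed the threshold. For the adhesion gene Epcam the difference was 0.03 ± 0.05 (95% CI -0.08 to 0.14), and its sign turned with median centring and without knockout replicate 2. Fibroblast markers moved the opposite way. The luminal marker list, which also holds Cldn3, had a median difference of 0.05, with 7 markers higher and 3 lower. The part of fibroblasts in these values was not tested.

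The Zeb box was common in this list. All 13 of the genes with a promoter entry held at least 1 box, as did 17 of their 20 promoter windows, against 20.2% of 32851 promoter windows and 22.6% of 27025 genes in the table. The list was assembled from genes described as Zeb targets, so this share is no independent evidence. The same letters are bound by Snail proteins too. The 13 genes with a box had a median difference of -0.10 with 11 of 13 below 0. The 12 genes without a promoter entry had a median of -0.07 with 10 of 12 below 0. Whether those 12 hold a box is unknown, so the medians do not compare genes with and without it. Epcam and Patj, both with a box shown above, had positive differences, at 0.03 and 0.15.

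The Ovol core was searched as CCGTTA or its reverse complement TAACGG. It was absent from the 6 windows of the 3 genes with a promoter entry (Ovol2, Ovol3 and Zeb2), as was the Zeb box, and 2.76% of all windows held it. Among the epithelial genes it occurred in Crb3, where the letters directly precede a Zeb box without overlapping it.
Crb3, chr17:57062122-57062147, plus strand: aatggggttcCCGTTAcaggtgctct

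**Figure D4:**
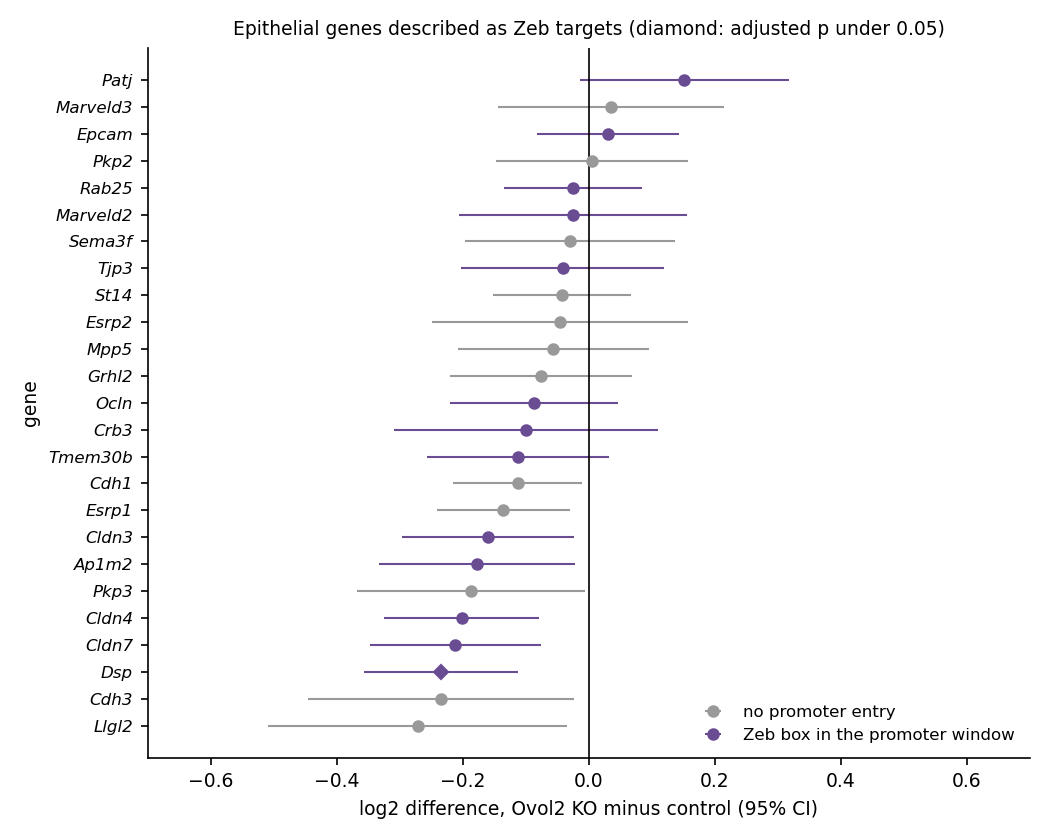
Log2 difference (Ovol2 KO minus control) with its 95% interval for 25 epithelial genes described as Zeb targets, coloured by whether a Zeb box was found in the promoter window or the gene had no promoter entry. Values ran from -0.27 for Llgl2 to 0.15 for Patj, 21 lay below 0, and Dsp (diamond) was the gene past the threshold.

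The miR-200 genes, whose seeds are printed above, were dim and did not pass. Mir200c read 7.99 and 7.77 in the controls against 7.61 and 7.86 in the knockouts (-0.15 ± 0.14), and Mir200a 7.67 and 7.79 against 7.61 and 7.50 (-0.17 ± 0.13). Mir200b differed by 0.12 ± 0.16 and Mir141 by 0.04 ± 0.14, and 0 of the 4 had an unadjusted limma p under 0.05, with adjusted p between 0.519 and 0.914. The groups overlapped for 3 of the 4, and both seed groups held a negative and a positive difference. Such probe sets read the hairpin or its precursor, not the mature microRNA, and the Mir429 probe set also carries another gene and was not used.

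Corepressors and partners through which Zeb proteins act did not change at the transcript level past the threshold. Of 19 genes, among them the CtBP genes, histone deacetylases and Smad genes, 0 rose and 0 fell, with a median of -0.02. Over all genes 6.25% were called in either direction, so this count does not set the list apart. Ctbp1 differed by -0.03 ± 0.06 and Ctbp2 by -0.04 ± 0.05, with 95% intervals from -0.17 to 0.11 and from -0.15 to 0.08. At an unadjusted limma p under 0.05 there were 3 of 19, against 3712 of all 19938 genes. The values furthest from 0 were those of Hdac2 (-0.22 ± 0.08, adjusted p = 0.143) and Kat2b (0.21 ± 0.08, adjusted p = 0.188). The replicate block, and the fits without control replicate 2 or without knockout replicate 1, each called 1 of the 19 lower.

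Of 5 genes described as Ovol targets, 2 rose, against 3.87% of all genes called higher. The count was 1 in the fit over all probe sets and 0 without the variance trend. The intermediate filament gene Vim went from 12.12 and 12.19 to 12.47 and 12.73 (0.45 ± 0.07, adjusted p = 0.00567), and Id2, an inhibitor of basic helix-loop-helix factors, from 11.58 and 11.54 to 11.95 and 12.05 (0.44 ± 0.05, adjusted p = 0.00119). The knockout arrays lay above both controls for each. Myc (0.14 ± 0.08), Notch1 (0.07 ± 0.07) and the N-cadherin gene Cdh2 (-0.31 ± 0.08, adjusted p = 0.0575) did not pass. Myc passed without control replicate 2 (0.25) and without knockout replicate 1 (0.24), and Cdh2 passed as lower with an offset of 64, with a filter on dim genes, with a robust prior, under the replicate block and without knockout replicate 1 (-0.38). Vim is also a fibroblast gene, and the fibroblast list median was 1.11.

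Other EMT transcription factors did not follow Zeb1 as a group. Of 11 measured, 2 rose, 1 fell and 8 did not pass, with a median of 0.02. Among all genes 3.87% were called higher and 2.38% lower. Both knockout arrays lay above both controls for 5 of the 11 and below for 4, against 20.1% and 29.5% of all genes. Prrx1 rose by 0.66 ± 0.13 and Tcf4 by 0.31 ± 0.06, both known from stroma as well and neither called without control replicate 1 (adjusted p = 0.0695 and adjusted p = 0.0552). Snai2, which is also a basal cell gene, fell (-0.39 ± 0.09, adjusted p = 0.0259; -0.24 without knockout replicate 1). Snai1 differed by 0.17 ± 0.13 and Twist1 by 0.53 ± 0.14 (adjusted p = 0.051), a dim gene at 6.97 to 7.63 on all arrays. Twist2 differed by 0.38 ± 0.12 (adjusted p = 0.109) and Snai3 by -0.31 ± 0.15 (adjusted p = 0.296).

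Of 17 measured genes of the signals upstream of Zeb or Ovol, 3 rose and 1 fell (median 0.09). Over all genes 3.87% were called higher and 2.38% lower. In the fit over all probe sets, and without the variance trend, 0 of the 17 rose and 0 fell. The ligand gene Tgfb3 rose by 0.47 ± 0.08, its coreceptor gene Tgfbr3 by 0.33 ± 0.08 and Id1, a target of BMP signalling, by 0.61 ± 0.13, while the ligand gene Bmp7 fell (-0.34 ± 0.06, adjusted p = 0.0121). The ligand gene Bmp4 had the largest difference of the list at 0.71 ± 0.19 and did not pass (adjusted p = 0.0583). Id1 and Tgfbr3 were not called without control replicate 1 (adjusted p = 0.0736 and adjusted p = 0.15) or without knockout replicate 2, nor Tgfbr3, Bmp7 and Tcf4 with median centring. The keratin gene Krt14, the source of the promoter used for Cre, did not pass at 0.43 ± 0.14 (adjusted p = 0.119), and did with median centring, under the replicate block, on the values as deposited, and without control replicate 2 or knockout replicate 1.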

How the data were processed

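The deposited table held 1 linear signal intensity per probe set and array. Per the submitters' processing notes it was made with Affymetrix Expression Console 1.1.1 and PLIER 2.0; its settings, background correction and normalization were not stated in the notes or labels. Genes were named from the platform annotation: 21789 probe sets had 1 symbol, 1621 several and 12146 none. Values were log2(signal + 16), quantile normalized over all probe sets, and compared with limma 3.58.1 in R 4.3.3 (lmFit, eBayes with trend, two-sided, 2 residual and 8.33 prior degrees of freedom; median SE 0.119). No filter on dim signal was applied, so that every Ovol and Zeb gene was tested. Lists count the brightest probe set of a gene and came from general knowledge of the Zeb and Ovol network. Named genes were the members, up to 4 called genes per list with the largest difference, a fixed set (Cdh1, Epcam, Vim, Cdh2, Myc, Notch1, Id2, Snai1, Snai2, Krt14) and the nearest profiles; others were named after their values were seen. Members and lists were chosen with earlier results of these data known. An exact permutation test of 2 against 2 arrays cannot go below p = 0.333. Each array is a separate pool, called a biological replicate in the labels. Alternatives covered scaling, offset, filter, probe sets, variance prior, replicate block and each array left out. Protein sequences were not used here. Sequences come from RefSeq tables.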

Additional observations from a re-analysis of the deposited data

How the results depend on the processing

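Zeb1 passed in 12 of the 13 alternatives, Zeb2 in 10 and Ovol2 in 0. All 13 kept the sign of Zeb1, Zeb2 and Ovol2, which most of them could not have turned. The filter, probe set, variance prior and block settings left these differences unchanged. Leaving out 1 array cannot turn a sign where the groups do not overlap. Under median centring, and on the deposited signals left unscaled, the prior degrees of freedom were infinite. The Zeb1 and Zeb2 calls there gave no weight to each gene's own spread. Without the variance trend 26 probe sets passed in place of 1382, and Zeb1 (2.01, adjusted p = 0.0685) and Zeb2 (0.70, adjusted p = 0.16) did not. In a fit over all 35556 probe sets 268 passed and Zeb2 (0.70, adjusted p = 0.125) did not. Of the other named genes, Lum, Nrxn3, Pdgfra, Postn, Ms4a1 and Cd79a passed under every alternative in which they were tested. Dsp, Vim, Snai2, Prrx1, Tcf4, Tgfb3, Tgfbr3, Id1, Bmp7, Lyz2, Mylk, Myh11, Hmcn1 and Rgl1 passed in neither of those 2 fits. Nor did Cd36, Fabp4 and Pparg of the adipocyte list or Oxtr, Cnn1, Acta2 and Trp63 of the basal list. Leaving out 1 array at a time gave 794 (without control replicate 1) to 2370.0 calls, -0.12 to 0.19 for Ovol1, -0.30 to 0.018 for Ovol3, 0.52 to 0.88 for Zeb2 and -0.041 to 0.10 for Epcam, which was -0.0199 with median centring. A group with 1 array left is assumed to vary like the other. Deviations of same-numbered arrays from their group means had a weak negative correlation across all probe sets (-0.23), although for Zeb1 and Zeb2 they had the same sign, so the numbers were not taken to pair the arrays. With the replicate block 2462 probe sets passed and no call of the 5 genes changed; a crossed pairing, added after seeing the data, gave 1955. Signal was dim for Zeb1 in the controls, for Ovol2 in the knockouts and for the miR-200 genes. Zeb1 was 2.10 with an offset of 1 and 1.77 with an offset of 64, and Ovol2 was -0.41 and -0.33.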
